A study of Homo sapiens with 4 samples.

Results

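Actin bundlers and crosslinkers tie actin filaments together in filopodia, microvilli, stress fibres and the cell cortex. The mRNA of 9 such genes (LCP1, PLS1, PLS3, FSCN1, ACTN1, ACTN4, FLNA, ESPN and VIL1) was examined in MDA-MB-231 and LM2-4175 cells. They were found by gene name among the 57815 genes of the deposited table, each in 1 row. The names had been chosen with their expression in these cells in view, so the difference between the cell lines is described and not tested. MDA-MB-231 is an established line of triple-negative breast cancer, and LM2-4175 is a derivative isolated from it that metastasizes to the lung. Both were cultured untreated in the same medium with serum, and 2 RNA-Seq libraries were made of each, 4 in all. For each gene and line the table gives a single FPKM, a fragment count scaled to transcript length and sequencing depth, made from both libraries, with a lower and an upper bound from the authors' software. No value per library was examined, so there is no SD and no replicate check of any difference, and LM2-4175 is 1 derivative line. Below, pairs of values are given for MDA-MB-231 first and LM2-4175 second, with the bounds in parentheses.

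The families differ in how they hold filaments. Plastins, also called fimbrins, are compact monomers that pack filaments into tight parallel bundles. LCP1 encodes L-plastin, the form of white blood cells that many carcinoma lines also express, PLS3 encodes T-plastin of solid tissues, and PLS1 encodes the form of intestinal and inner ear epithelium. FSCN1 encodes fascin, the bundler of filopodia, which is low in most normal epithelia and known from invasive carcinomas. The alpha-actinins ACTN1 and ACTN4 are antiparallel dimers that link filaments in stress fibres and at adhesions, and FLNA encodes filamin A, a long flexible dimer that forms networks at the cortex. ESPN (espin) and VIL1 (villin) bundle the filament cores of stereocilia and brush border microvilli.

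The identity of the cells was checked with marker genes. VIM, the mesenchymal intermediate filament gene, had 1355.0 and 1767.5 FPKM, CD44 had 469.7 and 355.0 FPKM, and EGFR had 41.42 and 54.33 FPKM. The hormone receptor genes that define luminal tumours were near 0, with 0.03314 and 0.01861 FPKM for ESR1 and 0.01238 and 0.00438 FPKM for PGR. ERBB2 had 34.95 and 22.76 FPKM, and the epithelial cadherin gene CDH1 had 0.8505 and 0.3655 FPKM. EPCAM, another epithelial marker, fell from 12.26 to 4.928 FPKM.

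LCP1 and FSCN1 were called higher in LM2-4175, and none of the 9 genes was called lower. A call required a status of OK, a mean of at least 0.5 FPKM, a difference of at least 1.5-fold between the values of FPKM + 1, and bounds that lay apart. Of the 13911 genes that passed the first 2 criteria, 9.27% were called, 4.67% higher and 4.61% lower. These criteria left 8 of the 9 members, all except VIL1. The 8 had a median log2 fold change of 0.23, where that of all genes tested was -0.04, and FPKM was higher in LM2-4175 for 6 and lower for 2. By the fold alone 3 members passed, LCP1 and FSCN1 as higher (10.3% of all genes tested) and ACTN4 as lower (11.8%). Nothing is read from these shares, because the members were chosen from this same contrast.

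**Figure D1:**
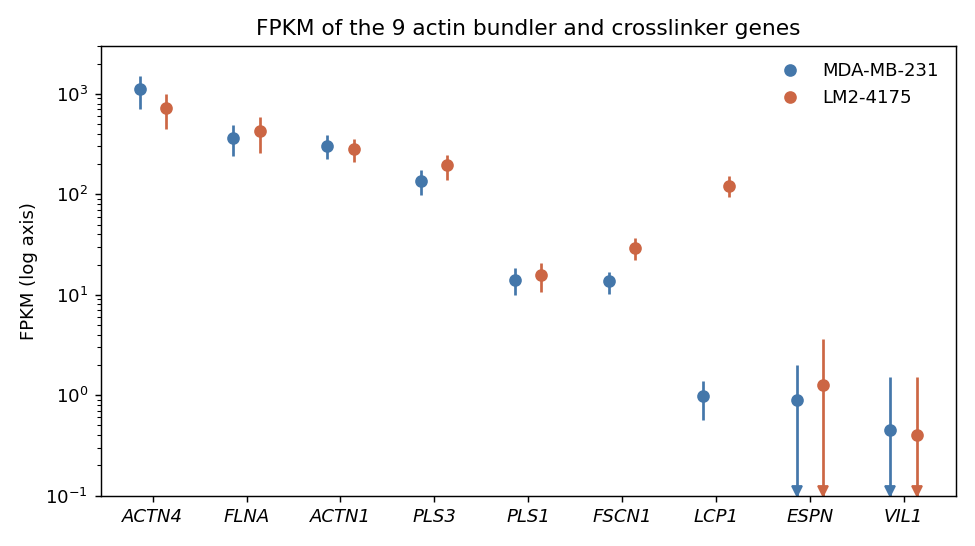
FPKM of the 9 genes on a log axis in MDA-MB-231 (blue) and LM2-4175 (orange), with lines from the lower to the upper bound and a downward triangle where the lower bound is 0. The lines of LCP1 and of FSCN1 lie apart, and those of the other 7 genes overlap.

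LCP1 (ENSG00000136167.9) lies on the minus strand of chromosome 13 (GRCh37, 46700055 to 46786006) and had 0.9714 FPKM (0.5705 to 1.372) and 121.8 FPKM (92.98 to 150.7). It was barely expressed in MDA-MB-231 and abundant in LM2-4175, ranking 12567 and 752 of all genes by FPKM. The FPKM values had a ratio of 125.0, which the bounds place between 67.8 and 264.0. On the scale of FPKM + 1, which understates changes of low genes, the log2 fold change was 5.96, the rank 7 increase among the genes tested.

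The sequence before the start of LCP1 is printed because this is the member whose level differed most, and those of PLS3 and FLNA are printed for comparison as members that were not called. Each is the stretch of 250 bases before a RefSeq start (table on GRCh38.p14), 5′ to 3′ on the strand of the gene. Each matched GRCh37 once, at chr13:46756313-46756562 on the minus strand for LCP1, at chrX:114795251-114795500 on the plus strand for the first start of PLS3, and at chrX:153603003-153603252 on the minus strand for FLNA. The LCP1 stretch lies inside the gene span given above, so this RefSeq start is not the outermost annotated one. Those of PLS3 and FLNA lie directly before the gene span. Capitals mark the TATA box, the CCAAT box, the GC box and the CArG box on either strand.
LCP1: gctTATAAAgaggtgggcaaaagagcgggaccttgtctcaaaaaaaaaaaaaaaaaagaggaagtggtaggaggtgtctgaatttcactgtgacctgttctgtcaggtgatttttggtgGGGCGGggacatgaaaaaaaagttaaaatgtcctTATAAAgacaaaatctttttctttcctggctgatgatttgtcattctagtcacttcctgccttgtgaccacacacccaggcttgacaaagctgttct
PLS3: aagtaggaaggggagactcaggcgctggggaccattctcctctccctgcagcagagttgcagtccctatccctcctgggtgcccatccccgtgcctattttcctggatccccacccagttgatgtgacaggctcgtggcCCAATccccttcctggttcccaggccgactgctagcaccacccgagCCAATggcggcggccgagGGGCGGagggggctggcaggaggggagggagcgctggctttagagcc
FLNA: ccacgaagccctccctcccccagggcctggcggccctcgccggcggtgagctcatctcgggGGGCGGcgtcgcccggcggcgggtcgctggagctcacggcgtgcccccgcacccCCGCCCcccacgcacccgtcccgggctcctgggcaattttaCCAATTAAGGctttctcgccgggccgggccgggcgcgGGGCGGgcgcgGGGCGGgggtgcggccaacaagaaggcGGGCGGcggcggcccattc

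The LCP1 stretch was poor in G and C (41.2%, with 2 CpG), whereas that of PLS3 had 65.2% and 10 CpG and that of FLNA 78.4% and 35 CpG. Over 35116 RefSeq stretches of this length the median was 58.0% and 11 CpG. With positions counted from the start, the LCP1 stretch held TATAAA at -247 to -242 and at -97 to -92, a motif of 10.7% of all stretches. It also held GGGCGG (GC box, 42.6%) at -131 to -126 and CANNTG (E-box, 61.8%) at -147 to -142. The printed PLS3 stretch had CCAAT (32%) at -111 to -107 and -65 to -61, an E-box at -135 to -130 and a GC box at -47 to -42. FLNA had 5 GC boxes and at -94 to -85 a CArG box, the site of serum response factor, which overlaps a CCAAT box. A CArG box was found in 1.2% of all stretches, and of the 13 member stretches also in the third of ACTN1. That ACTN1 stretch also held TATAAA on the opposite strand, at -122 to -117. TGANTCA (AP-1, 6.6%) was found before the first start of ACTN4, and CCGGAAG (ETS, 8.5%) and the NF-kB site (5.2%) were not found in the member stretches. Both strands were searched. The 13 stretches belong to LCP1, PLS1, PLS3, ACTN1, ACTN4 and FLNA. FSCN1, ESPN and VIL1 were not matched in the table.

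**Figure D2:**
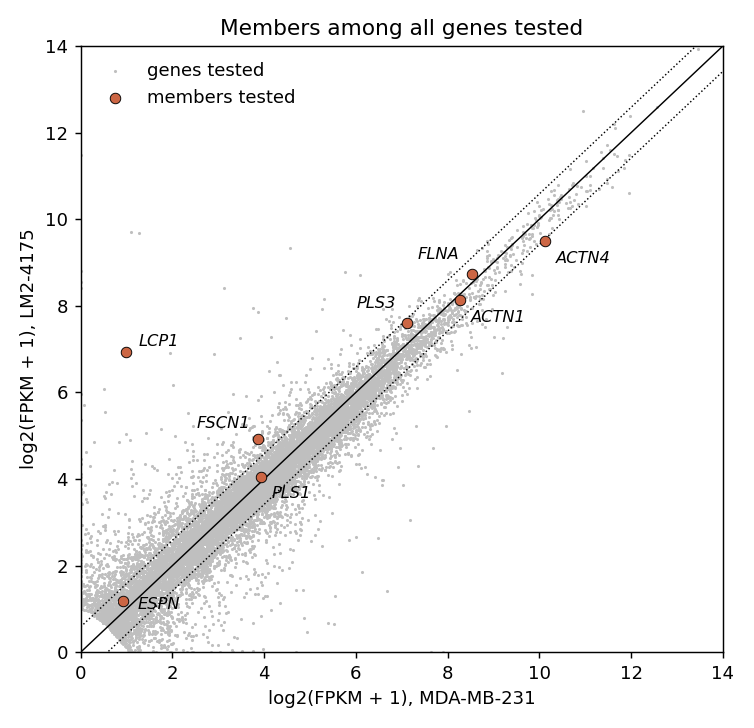
log2(FPKM + 1) of the 13911 genes tested (grey) and the 8 members among them (orange), with MDA-MB-231 on the x axis, LM2-4175 on the y axis, a line of equal values and dotted lines at 1.5-fold. LCP1 lies far above the upper dotted line, FSCN1 above it, and ACTN4 at the lower one.

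Genes tested with a level in MDA-MB-231 near that of LCP1 were counted by their level in LM2-4175. Of 2089 genes tested that had 0.5 to 2 FPKM in MDA-MB-231, 27 had at least 10 FPKM in LM2-4175 and 3 had at least 100 FPKM, while the median there was 1.16 FPKM. Besides LCP1 these 3 were CSF3 (1.15 and 831.1 FPKM), which encodes a granulocyte growth factor, and IL1B (1.425 and 819.1 FPKM), which encodes an inflammatory cytokine. The limits enclose the values of LCP1, which was chosen from this contrast, so nothing is read from how few genes met them. The filter on the mean also removed genes of this window that were low in LM2-4175, which raises the median. Genes under 0.5 FPKM in MDA-MB-231 were not counted. The 5 genes most like LCP1 were sought by the distance between pairs of log2(FPKM + 1), which rests on 2 values a gene. CXCL1, a neutrophil chemokine gene, had 2.857 and 118.9 FPKM at a distance of 0.97, and FKBP10, a collagen chaperone gene, had 0.4253 and 67.01 FPKM at the same distance. RP11-93B14.5 followed at 1.28 (3.011 and 71.19 FPKM), a Y_RNA gene (ENSG00000207371.1) at 1.39 and the prostaglandin synthase gene PTGS2 at 1.45 (0.4546 and 45.97 FPKM). In MDA-MB-231 the Y_RNA gene was listed at 0, against 61.09 FPKM in LM2-4175. None of the 5 lies on the chromosome of LCP1.

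As L-plastin is known from white blood cells, 13 of their marker genes were examined. Of the 4 that passed the filter, 3 were called higher, where 4.67% of all genes tested were. LAPTM5, a lysosomal protein gene of blood cells, rose from 32.06 to 110.0 FPKM, ITGB2, the beta-2 integrin gene, from 3.925 to 13.06 FPKM, and HCLS1, a cortactin relative, from 1.782 to 7.098 FPKM. The monocyte gene CD14 had 1.172 and 1.75 FPKM and was not called. The markers that define the lineages were at or near 0. PTPRC (CD45) had 0.07667 and 0.0263 FPKM, SPI1 had 0.02559 and 0.0003818 FPKM, CD53 had 0.01775 and 0.01841 FPKM, and CD3E was listed at 0 in both lines. The 13 markers summed to 39.98 and 132.3 FPKM, most of it LAPTM5. In bulk RNA, a change in the number of cells of a type and a change in RNA per cell cannot be told apart.

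PLS3 (ENSG00000102024.13, chromosome X, 114795501 to 114885181) was the most abundant plastin in both lines, with 137.1 FPKM (99.34 to 174.8) and 193.9 FPKM (140.0 to 247.7). PLS1 (ENSG00000120756.8, chromosome 3, 142315235 to 142432506) had 14.17 FPKM (9.844 to 18.49) and 15.57 FPKM (10.65 to 20.5). Neither was called, and the bounds allow ratios of 0.801 to 2.49 for PLS3 and 0.576 to 2.08 for PLS1. Since FPKM is per length, the 3 plastins can be added, which gave 152.2 and 331.2 FPKM, a ratio of 2.18. The share of LCP1 in it was 0.638% and 36.8%. The share of PLS3 was 90.1% and 58.5%, and that of PLS1 was 9.31% and 4.7%, although the FPKM of neither was lower in LM2-4175.

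FSCN1 (ENSG00000075618.13) lies on the plus strand of chromosome 7 (5632447 to 5646286). Its level rose from 13.6 FPKM (10.23 to 16.97) to 29.53 FPKM (22.33 to 36.74). The ratio of 2.17 could lie between 1.32 and 3.59 by the bounds, and the log2 fold change was 1.06. FSCN2, the retinal fascin gene, had 0.1804 and 0.5541 FPKM, and FSCN3, the testis form, had 0.03048 and 0.02572 FPKM, too low to be tested. FSCN1 therefore made up 98.5% and 98.1% of the fascin sum.

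**Figure D3:**
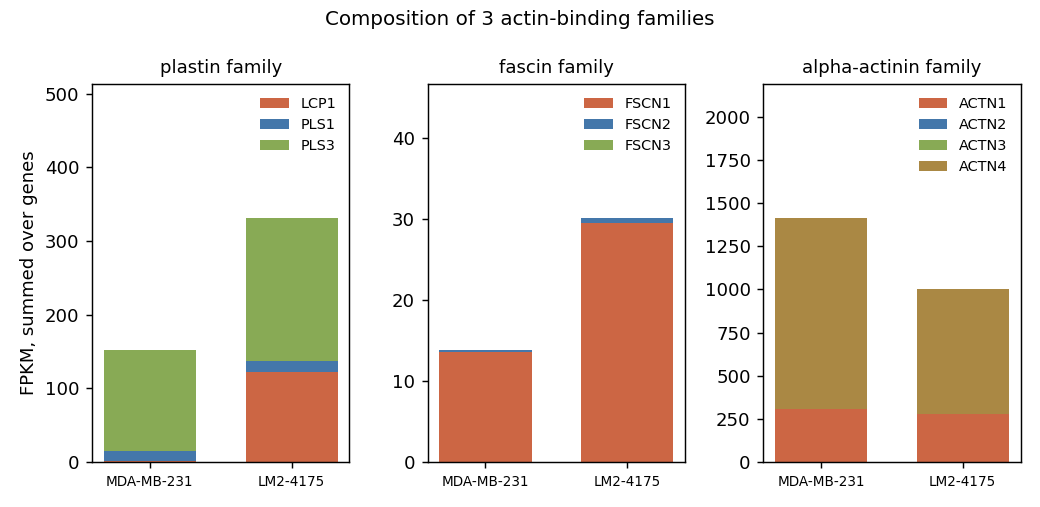
FPKM stacked by gene for the plastin, fascin and alpha-actinin families in both lines, each panel with its own y axis from 0. The plastin bar is 152.2 FPKM high in MDA-MB-231, with almost no LCP1, and 331.2 FPKM high in LM2-4175, and the alpha-actinin bars are 1415.4 and 1002.2 FPKM high.

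The alpha-actinin genes were the most abundant family. ACTN4 (ENSG00000130402.7, chromosome 19, 39138289 to 39222229) had 1109.6 FPKM (703.3 to 1515.9) and 722.0 FPKM (448.7 to 995.3), ranking 75 and 117 of all genes. The value in MDA-MB-231 was 1.54 times as high, a log2 fold change of -0.62, but the bounds overlap. After scaling of both lines to the same sum the log2 fold change was -0.54, under the fold. ACTN1 (ENSG00000072110.9, chromosome 14, 69340845 to 69446157) had 305.7 FPKM (226.1 to 385.3) and 280.0 FPKM (207.6 to 352.5), and its log2 fold change was -0.13. The muscle forms ACTN2 (0.0003004 and 0.1369 FPKM) and ACTN3 (0.05942 and 0.01022 FPKM) were near 0. ACTN4 held 78.4% and 72.0% of the family sum of 1415.4 and 1002.2 FPKM.

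FLNA (ENSG00000196924.10, chromosome X, 153576892 to 153603002) had 367.1 FPKM (242.0 to 492.2) and 425.8 FPKM (260.3 to 591.3), and its log2 fold change of 0.21 was not called. FLNC, the muscle filamin gene, fell from 65.24 FPKM (49.4 to 81.08) to 26.94 FPKM (19.96 to 33.93).

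The bundler genes of stereocilia and brush border microvilli, ESPN and VIL1, were barely detected. ESPN (ENSG00000187017.10, chromosome 1, 6484836 to 6521427) had 0.8967 FPKM (0 to 2.006) and 1.26 FPKM (0 to 3.638). VIL1 (ENSG00000127831.6, chromosome 2, 219283844 to 219318018) had 0.4479 FPKM (0 to 1.526) and 0.4037 FPKM (0 to 1.505). With lower bounds of 0, a difference in either gene was not detectable at this precision.

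The 9 genes together had 1949.6 and 1790.3 FPKM, a ratio of 0.918. After scaling of both lines to the same sum the ratio was 0.972. In MDA-MB-231 the order of the levels was ACTN4, FLNA, ACTN1, PLS3, PLS1, FSCN1, LCP1, ESPN and VIL1. In that line the bounds of FLNA and ACTN1 overlap, as do those of PLS1 and FSCN1 and those of LCP1, ESPN and VIL1. In LM2-4175 the order was ACTN4, FLNA, ACTN1, PLS3, LCP1, FSCN1, PLS1, ESPN and VIL1. There the bounds of each of the first 4 overlap those of the next, as do those of ESPN and VIL1, whereas those of LCP1 and FSCN1 and those of FSCN1 and PLS1 lie apart. LCP1 made up 0.0498% and 6.8% of the sum, and ACTN4 made up 56.9% and 40.3%.

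Overlapping genes were listed from GENCODE 44 on GRCh37, since no source used here says whether strand was used in counting. CPB2-AS1 overlaps 19% of the exon bases of LCP1 on the opposite strand, and had 0.05549 and 0.0209 FPKM. USP37 overlaps 44.2% of those of VIL1 and had more FPKM than VIL1 (4.003 and 5.892), and its part in the values of VIL1 was not tested. CAPN12 overlaps 14.2% of ACTN4 and had 32.33 FPKM (0 to 101.7) and 21.3 FPKM (0 to 64.17). The overlap was 7.8% for PLS1, 5.8% for ESPN, 2.1% for ACTN1, 0.4% for FLNA and 0.0% for PLS3 and FSCN1. Of all runs of 75 bases in the transcripts of FSCN1, 1.8% also occur in the pseudogene FSCN1P1, and 0.2% of those of PLS3 occur in another gene.

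The genes around each member give a comparison by position, which played no part in the choice of names. The change of the member itself did play a part, so its distance from its neighbours is only described. Of 12082 protein-coding genes tested, 44.7% had a higher FPKM in LM2-4175, and their log2 fold changes had a median of -0.05. The 22 of them within 3 Mb of LCP1 had a median of 0.12 and a range of -0.3 to 1.21, all under the 5.96 of LCP1. SPERT, at a gap of 411.0 kb, was the 1 neighbour of LCP1 called (0.01398 and 1.343 FPKM). The 36 neighbours of FSCN1 had a median of 0.07, and ICA1 (2.639 and 12.05 FPKM) was the 1 called, higher. Over all genes tested, 9.27% were called.

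Around ACTN4 the neighbours leaned the same way as ACTN4 itself. Of 113 there, 85 had a lower FPKM in LM2-4175, with a median of -0.26. Of the 113, 4 were called lower and 2 higher, where 4.61% and 4.67% of all genes tested were. The calls around ACTN4 were thus not more frequent than over all genes tested. The called gene nearest to ACTN4 was PAPL, which rose from 0.4141 to 3.536 FPKM. Around FLNA 35 of 42 had a higher FPKM, with a median of 0.29 and no call. The 5 neighbours of PLS3 had a median of 0.51, among them IL13RA2, an interleukin-13 decoy receptor gene that rose from 0.05487 to 50.99 FPKM. The medians were -0.05 for the 17 neighbours of PLS1, 0.08 for the 29 of ACTN1, 0.03 for the 37 of ESPN and 0.13 for the 44 of VIL1. The nearest called genes were SLC9A9 for PLS1 (0.1472 and 1.377 FPKM), ZFP36L1 for ACTN1 (64.02 and 119.4 FPKM), GPR153 for ESPN (4.778 and 12.7 FPKM) and IGFBP2 for VIL1 (0.3318 and 2.449 FPKM), all higher. FN1, also called near VIL1, was lower (313.7 and 117.3 FPKM). SLC9A9, IGFBP2, SPERT, PAPL and IL13RA2 had under 0.5 FPKM in MDA-MB-231 and passed the filter only through LM2-4175. Nothing is therefore read from the direction of the nearest calls.

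**Figure D4:**
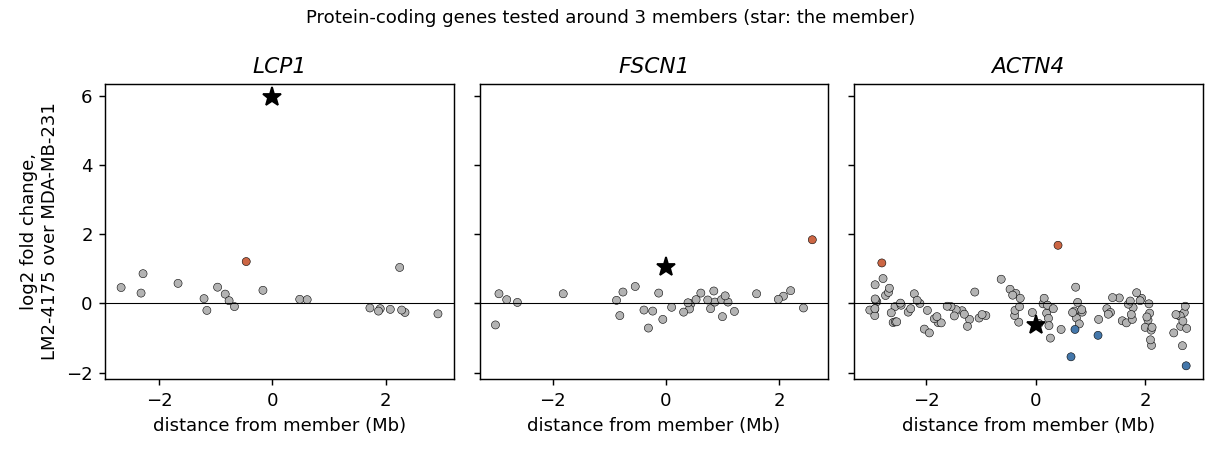
log2 fold change of FPKM + 1 (LM2-4175 over MDA-MB-231) of protein-coding genes tested around LCP1, FSCN1 and ACTN4, against the distance between gene centres in Mb, with the member as a star and called genes in orange (higher) or blue (lower). LCP1 at 5.96 is far above its neighbours at -0.3 to 1.21, and ACTN4 at -0.62 lies among its neighbours.

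Most of the other actin genes had a lower FPKM in LM2-4175. Lists of actins, actin-binding proteins and their regulators held 118 further genes, of which 101 were tested. FPKM was lower for 66 and higher for 35 of these, with 11 called lower and 3 called higher and a median log2 fold change of -0.21. The share called was 13.9%, against 9.27% of all genes tested (4.61% lower and 4.67% higher), whose median was -0.04. Of protein-coding genes tested, 44.7% had a higher FPKM in LM2-4175. The lists were chosen with earlier results known, so the difference from these shares was not tested. After scaling to the same sum 62 were lower and 39 higher, with 9 called lower, 3 called higher and a median of -0.13.

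**Figure D5:**
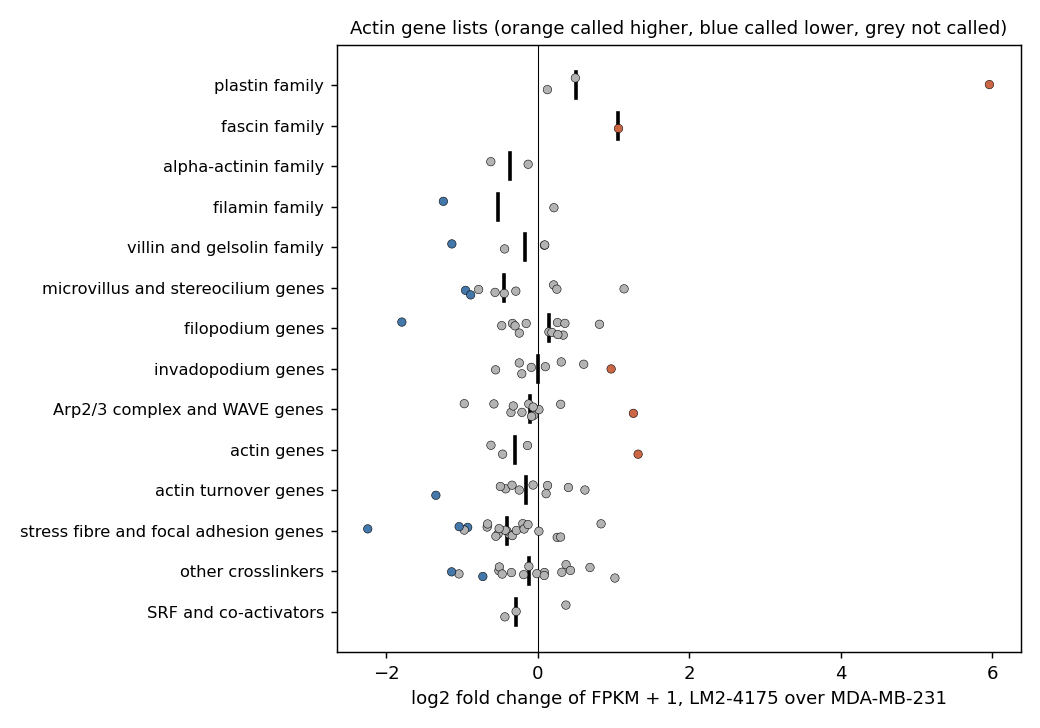
log2 fold change of FPKM + 1 (LM2-4175 over MDA-MB-231) of the genes tested in each actin list, 1 point a gene (orange called higher, blue called lower), with the median of the list as a black bar. LCP1 at 5.96 is the point farthest to the right and TAGLN at -2.24 the one farthest to the left.

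The list of stress fibre and focal adhesion genes was the longest. Of 21 tested, 17 had a lower FPKM (median log2 fold change -0.41) and 3 were called lower, where 4.61% of all genes tested were. TAGLN, which encodes the actin binder transgelin, fell from 122.8 FPKM (89.09 to 156.4) to 25.14 FPKM (15.03 to 35.25), TAGLN2 fell from 495.6 to 241.0 FPKM, and the myosin light chain gene MYL12B from 609.2 to 320.7 FPKM. The tropomyosin gene TPM4 had 594.4 and 601.0 FPKM. SRF, the transcription factor gene of many actin genes, had 42.55 and 31.25 FPKM, its co-activator genes MKL1 and MKL2 had 10.01 and 8.038 FPKM and 7.159 and 9.558 FPKM, and MYOCD was listed at 0. None of these was called.

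Of 4 actin genes tested, 1 was called, where 9.27% of all genes tested were. ACTB had 3955.9 FPKM (2518.9 to 5392.8) and 2869.9 FPKM (1970.0 to 3769.9), and ACTG1 had 3375.1 and 2200.6 FPKM, with overlapping bounds for both. ACTG2, the enteric smooth muscle actin gene, rose from 0.1369 to 1.848 FPKM, which is uncertain because actin genes are nearly identical in sequence and their reads may be shared. Of 10 genes of actin turnover (median -0.15), TMSB4X, which encodes the monomer-binding thymosin beta-4, fell from 3964.7 to 1561.1 FPKM. Its relative TMSB10 had 3720.9 and 2642.9 FPKM and was not called.

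In the villin and gelsolin family, GSN, which encodes the severing protein gelsolin, fell from 70.88 to 31.77 FPKM (1 call among 4 tested, median -0.17), and the capping protein gene CAPG had 265.4 and 282.2 FPKM. Of 9 microvillus and stereocilium genes tested (median -0.44), the membrane linker gene EZR fell from 176.9 to 95.32 FPKM and EPS8 from 25.91 to 12.91 FPKM, while MSN, a relative of EZR, had 359.0 and 293.7 FPKM. Of 17 other crosslinkers (median -0.12), the spectrin genes SPTAN1 and SPTBN1 fell, from 97.03 to 43.62 FPKM and from 100.9 to 60.67 FPKM. ANLN, which encodes anillin of the contractile ring, had 250.2 and 121.2 FPKM with overlapping bounds. The calls of GSN and SPTBN1 were lost after scaling to the same sum. Over all genes tested, 4.61% were called lower.

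The lists of protrusion genes held 1 call each, where 9.27% of all genes tested were called. Nothing is read about a list from a single call. Of 13 filopodium genes (median 0.15), the formin gene DAAM1 fell from 22.62 to 5.817 FPKM, and CDC42, the GTPase gene of filopodia, had 238.8 and 171.5 FPKM. Of 8 invadopodium genes (median 0.01), the scaffold gene SH3PXD2B rose from 2.494 to 5.839 FPKM, and the membrane protease gene MMP14 had 141.0 and 215.3 FPKM with overlapping bounds. Of 12 genes of the Arp2/3 complex and WAVE proteins, which nucleate branched actin (median -0.1), WASF3 rose from 2.452 to 7.282 FPKM, and ARPC3 had 377.9 and 295.6 FPKM.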

How the data were processed

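The authors sequenced total RNA as paired reads of 150 bases, mapped them to hg19 by TopHat 2.0, ran Cufflinks (Cuffdiff in the submitters' processing notes) with GENCODE 19, and deposited per cell line an FPKM, its bounds and a status, made from 2 libraries. Library normalization, use of strand and what the bounds cover are not given in the sources used here. The table holds no counts, so the number of reads behind a value cannot be read from it, and precision was read from the bounds. A listed 0 can be a failed estimate, as EEF1A1 is listed at 0 without a status of OK.

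Log2 fold changes used FPKM + 1 (Python 3.11.15, NumPy 2.4.6, pandas 2.3.3, Matplotlib 3.10.9). The code of the call was run on simulated data with known changes as a check of the code only. The members, the 17 lists and the call were chosen with earlier results of these data known. Named genes are the members, up to 4 called and the highest of each list, the 5 nearest to LCP1 and the called gene nearest to each member within 3 Mb. Others, such as the uncalled marker, family, actin and SRF genes, CSF3, IL1B and overlapping genes, were chosen after their values were seen. Positions came from GENCODE 44, matched by Ensembl ID for 55535 genes. Other pseudocounts, filters, thresholds and scalings were tried as alternatives. Some genes of the lists are not reported here.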

Additional observations from a re-analysis of the deposited data

How the results depend on the processing

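LCP1 and FSCN1 were called higher under all 9 alternatives tried (a pseudocount of 0.1 or none, no filter or a mean of at least 5 FPKM, 2-fold, the fold alone, the bounds alone, scaling to the same sum and centring on the median). ACTN4 (log2 fold change -0.62) was called lower by 1.5-fold alone and under none of the others, and no further member was called under any. Over all genes, 649 were called higher and 641 lower. The fold alone gave 1434 higher and 1640 lower, a mean of at least 5 FPKM gave 321 higher and 443 lower (42.0% higher, the cause was not tested), and 2-fold gave 403 lower. Scaling to the same sum gave 727 higher and 541 lower (57.3% higher), against 50.3% as reported. With a pseudocount of 0.1 the median of the luminal and epithelial markers was -1.03 instead of -0.6, and that of the white blood cell markers was 1.74 instead of 1.53. Scaling and centring of list medians were chosen after seeing the data. No paired analysis was possible because the table holds 1 value per cell line made from both libraries, and for the same reason leaving out each replicate was not run. The bounds limit what can be said of ESPN and VIL1.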
